A study of Mus musculus with 8 samples.

Results

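The genotype difference under forskolin (FSK) was described as the pooled value of Med14 S983A islet nuclei treated with FSK minus that of wild-type (WT) islet nuclei treated with FSK. It was taken in pancreatic beta cells first and then in alpha and delta cells, so that 6 of the 54 pools in the series entered it. The question was which genes still differed between the genotypes when cAMP was raised. The islets came from WT mice and from mice carrying a whole-body knock-in that replaces a serine of Med14 with alanine (S983A). Islets of each genotype were cultured without a drug (CON), with FSK for 16 h, or with the GLP-1 receptor agonist Exendin-4 (Ex-4) at 10 nM for 16 h, and their nuclei were profiled by single nucleus RNA-seq. The sources used here do not state the FSK dose in islets or the age of the mice. The knock-in is present in every cell of the animal, so a difference in 1 islet cell type may arise in that cell or elsewhere, and the 2 cannot be told apart.

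FSK activates adenylyl cyclase directly and so raises cAMP without a hormone receptor, whereas Ex-4 raises it through the GLP-1 receptor of the beta cell. cAMP activates protein kinase A (PKA), which phosphorylates CREB and other nuclear proteins, and phosphorylated CREB bound at cAMP response elements recruits coactivators. Mediator is the multisubunit complex that connects such DNA-bound factors with RNA polymerase II, and Med14 is the subunit that holds its modules together. The substituted serine lies in a PKA site. In the GRCm39 genome the reference codon of this serine, in capitals, lies in a coding exon of Med14 on the minus strand at chrX:12562464-12562493. It is shown because its replacement defines the mutant genotype. Whether the mouse allele carries other designed changes is not stated in the sources used here.

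Med14, codon of the replaced serine: gctcggagaagaTCTgtaaatgaggatgat

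The table held 1 pool per genotype, treatment and cell type. No difference below was therefore tested, no SD or p-value could be computed, and genotype cannot be told apart from the first-round barcoding wells, which the labels assign by condition, or from the islets each condition was made from. Levels are given as CP10K, the counts of a gene per 10000 counts of its pool, with exact 95% Poisson intervals that cover counting error only. Differences are mutant minus WT on the log2(CP10K + 1) scale, and a gene was called higher or lower at 1.5-fold or 0.58 on that scale. The FSK pools of beta cells held 3094377 counts in WT and 2303451 in Med14 S983A, those of alpha cells 269394 and 785858, and those of delta cells 427549 and 631433. The mutant FSK pool of beta cells listed 16104 genes with a count and the deeper WT FSK pool 14059. The alpha total came to 8.71% of the beta total in WT FSK and to 34.1% in mutant FSK. A point substitution leaves the transcript in place, so the Med14 level does not check the genotype labels. In beta cells it was 0.753 CP10K in WT FSK and 0.716 in mutant FSK, with 233 and 165 counts. The labelled cell types carried their hormone genes, with Gcg at 115 CP10K in WT FSK alpha cells and 92.9 in mutant FSK alpha cells. Sst, the delta cell hormone gene, was at 6.10 and 5.42 CP10K in the delta pools.

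Under FSK few genes separated the genotypes in beta cells. Of 10093 genes kept after a filter on low levels, 3 were higher in the mutant and 11 were lower, together 0.139% of those kept (0.0297% higher and 0.109% lower). Untreated, the same comparison called 539 genes, or 5.34% (1.48% higher and 3.86% lower), and with Ex-4 it called 6 genes, or 0.0594%, all higher. Alpha cells had 7 higher and 39 lower genes of 9487 under FSK, which is 0.485% in all (0.0738% higher and 0.411% lower), against 7.38% in CON (1.94% and 5.44%) and 0.116% with Ex-4 (0.0632% and 0.0527%). In delta cells 13 genes were higher and 25 lower of 9256, which is 0.411% in all (0.14% higher and 0.27% lower), against 7.05% in CON (2.27% and 4.79%) and 0.281% with Ex-4. The SD of the difference over the kept genes of beta cells was 0.098 under FSK, 0.277 in CON and 0.094 with Ex-4. In alpha cells it was 0.177, 0.327 and 0.135, and in delta cells 0.169, 0.327 and 0.159. In all 3 cell types the FSK pools of the genotypes lay closer together than the CON pools did. These calls rest on the +1 in the log, which shrinks differences of low genes.

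**Figure D1:**
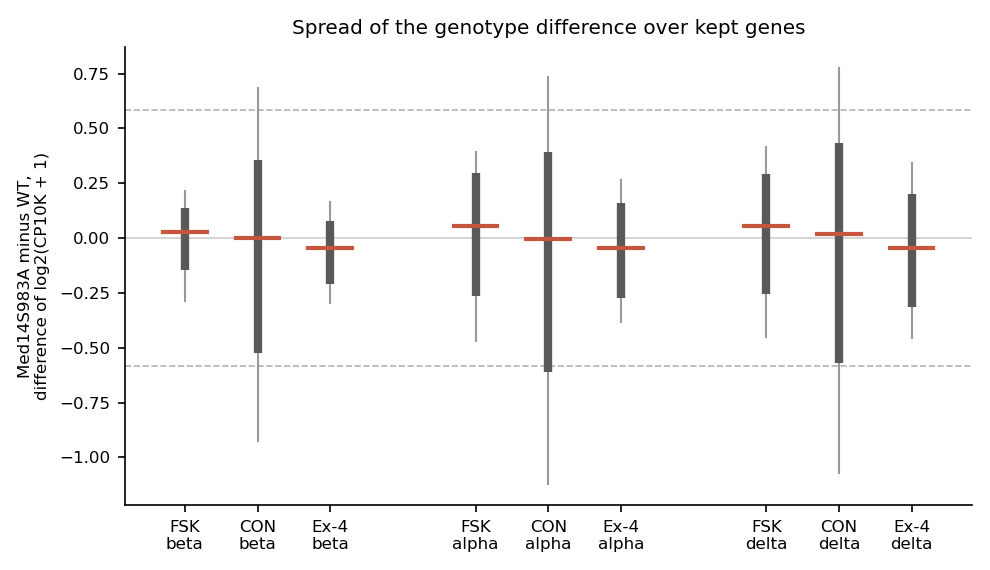
Mutant minus WT difference of log2(CP10K + 1) over the kept genes of each cell type and treatment, with the median (short horizontal line), the central 90% (thick bar) and 98% (thin line) of genes, and the 1.5-fold threshold dashed. The spread under FSK (SD 0.098 in beta cells) was narrower than in CON (0.277) in all 3 cell types.

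On a linear ratio of 1.5 with the counting intervals of both pools apart, 551 beta genes were higher in the mutant (5.46%) and 73 lower (0.723%). In alpha cells these were 0.97% and 1.28% of the kept genes, and in delta cells 2.11% and 1.22%. The share of higher genes among the calls was thus 21.4% on the first scale and 88.3% on the second in beta cells, 15.2% and 43.2% in alpha cells, and 34.2% and 63.3% in delta cells. All 98 calls of the 3 cell types also passed on the linear scale. Dropping the +1 can only widen a ratio, so only the intervals could have removed a call. The median linear log2 ratio over the kept genes was 0.16 in beta, 0.13 in alpha and 0.17 in delta cells. It depended on level, and fell in beta cells from 0.63 in the 20% of genes with the lowest levels to -0.048 in the 20% with the highest. Among the 2019 beta genes of the latter 10 were higher and 24 lower on the linear scale. The excess of higher genes therefore lay among genes below about 1 CP10K. In alpha cells 384 kept genes were listed at 0 in the WT FSK pool and 2 in the mutant FSK pool. The part of depth in this was not tested, and the text below stays with the log2(CP10K + 1) calls.

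Only 4 genes were called in the same direction in beta, alpha and delta cells. Peak1 and Rn7sk were lower in the mutant, and Cmss1 and Gm24407 were higher. Peak1 encodes a cytoskeletal pseudokinase scaffold and lies at chr9:56108410-56325566 on the minus strand. Rn7sk (chr9:78082585-78082915, minus strand) is 7SK, the small nuclear RNA that keeps the elongation kinase P-TEFb in an inactive complex.

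Peak1 stood at 0.508, 5.17 and 0.570 CP10K in the CON, FSK and Ex-4 pools of WT beta cells and at 0.649, 0.252 and 0.491 in those of the mutant. The WT FSK pool thus stood alone above the other 5, while the mutant FSK pool was the lowest of the 6. The FSK values rested on 1601 and 58 counts (95% intervals 4.92 to 5.43 and 0.191 to 0.326), a level 20.5-fold lower in the mutant and a difference of -2.30. In alpha cells the WT and mutant FSK levels were 8.43 and 0.458 CP10K, a difference of -2.69 (227 and 36 counts). In delta cells they were 4.75 and 0.507 CP10K, a difference of -1.93 (203 and 32 counts). The CON differences of Peak1 were 0.13, 0.27 and 0.36 in the same cell types, and the Ex-4 differences were -0.07 in alpha and 0.18 in delta cells. In the CON and Ex-4 pools Peak1 was not called in any of the 3 cell types.

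Rn7sk was at 1.52, 7.30 and 3.43 CP10K in WT beta cells with CON, FSK and Ex-4, and at 2.93, 1.12 and 5.15 in mutant beta cells. It was highest in the WT FSK pool and lowest in the mutant FSK pool, with 2259 and 259 counts, a 6.49-fold lower level in the mutant. The difference under FSK was -1.97 in beta, -1.67 in alpha and -1.25 in delta cells. In CON it ran the other way, at 0.64, 0.79 and 0.67, so that this gene changed sign between treatments in each cell type. The genome holds 11 near copies of 7SK with at least 90% identity over most of its length, and how the authors' counting treated reads shared with them is not stated, so the level is uncertain. No 7SK-like stretch was found inside Peak1, although both are on chromosome 9. Of the 7 kept members of a list of 7SK and P-TEFb components, Rn7sk was the only one called, and the list median was 0.017 beside 0.030 over all kept genes. With 0.139% of kept genes called, 0 calls among the other 6 is near the background.

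Cmss1 encodes a nucleolar protein linked to the small ribosomal subunit and lies at chr16:57122363-57427253 on the minus strand. In beta cells it stood at 47.6, 26.2 and 134 CP10K in the CON, FSK and Ex-4 pools of WT and at 144, 46.9 and 196 in those of the mutant. Each genotype had its lowest Cmss1 level under FSK, and the mutant was above WT in each treatment. The mutant FSK level was 1.79-fold that of WT in beta cells, 1.84-fold in alpha cells (52.5 and 96.4 CP10K) and 2.44-fold in delta cells (20.4 and 49.7 CP10K). The differences were 0.82, 0.86 and 1.25, below those in CON of 1.57, 1.59 and 1.58. Filip1l, a gene nested on the opposite strand of Cmss1, was higher too in delta cells, at 0.795 CP10K in WT FSK and 1.90 in mutant FSK. How the counting used strand is not stated, so reads of the pair cannot be told apart.

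Gm24407 is annotated as a small nuclear RNA of 141 bases at chr5:115628313-115628453 and overlaps another gene model on its strand. Its FSK levels in beta cells were 0.110 CP10K in WT and 0.669 in the mutant, from 34 and 154 counts. In alpha cells 7 counts stood against 97 and in delta cells 4 against 44. The differences of 0.59, 0.83 and 0.63 were accompanied by CON differences of 1.21, 0.88 and 0.74, and Gm24407 has 9 near copies elsewhere, which makes its level uncertain as well.

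**Figure D2:**
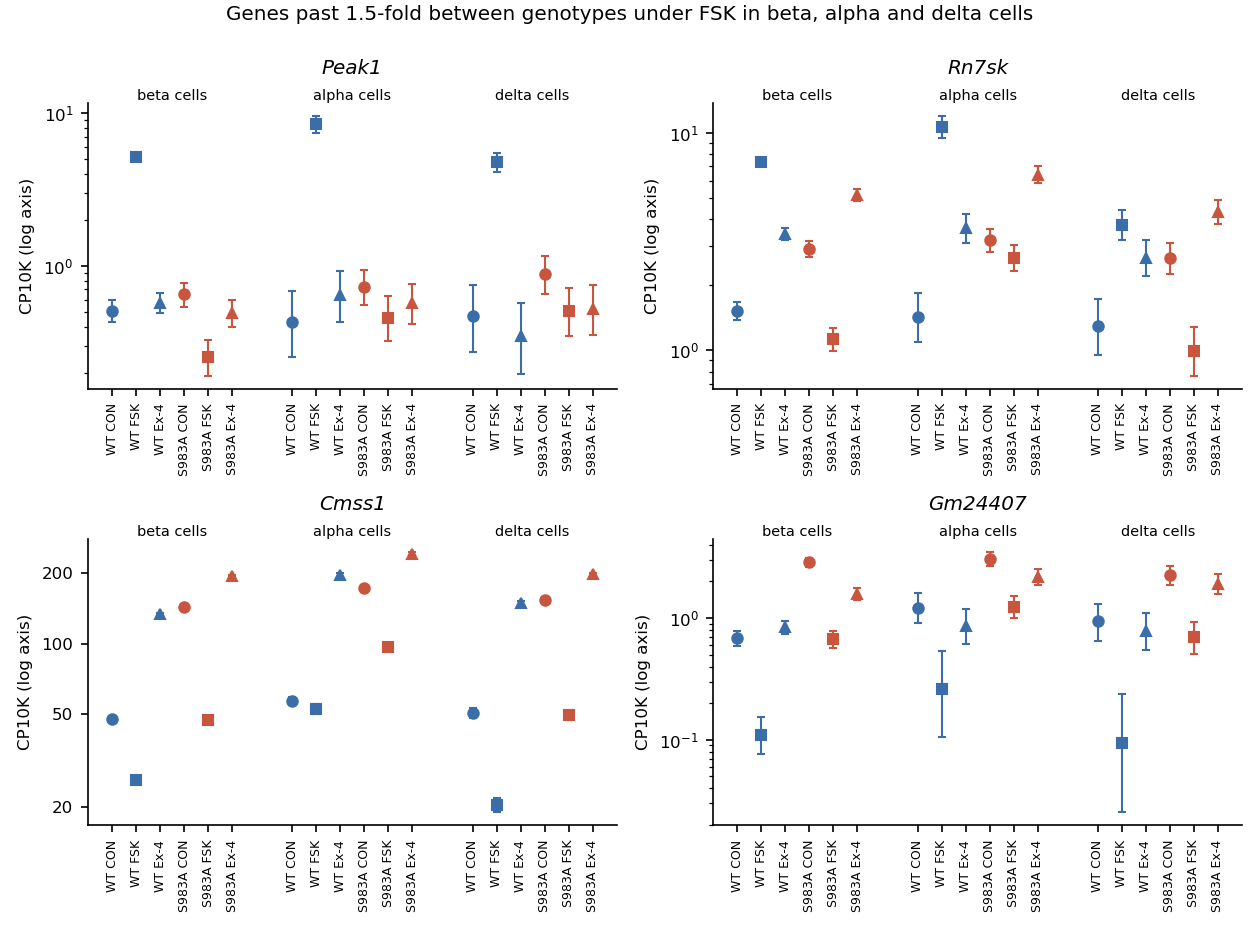
Levels (CP10K, log axis) of Peak1, Rn7sk, Cmss1 and Gm24407 in the 6 pools of beta, alpha and delta cells, with exact 95% Poisson intervals. Colors mark genotype (blue WT, red Med14 S983A). For Peak1 and Rn7sk the WT FSK pool is the highest WT pool in each cell type and the mutant FSK pool lies below it.

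The other 9 lower genes of beta cells varied in their CON differences, which were small, opposite or in the same direction. Hgsnat, a lysosomal acetyltransferase of heparan sulfate breakdown, had a small one. It stood at 0.362, 4.75 and 0.537 CP10K in WT with CON, FSK and Ex-4 and at 0.509, 2.64 and 0.554 in the mutant. Both genotypes were thus far higher with FSK than without, and the mutant FSK pool reached a 1.80-fold lower level (difference -0.66, CON difference 0.15). Dlgap2, a postsynaptic scaffold, was at 3.21 CP10K in WT FSK and 1.68 in mutant FSK, a difference of -0.65 beside -0.36 in CON.

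Scg2 encodes secretogranin II, a granin of dense-core secretory granules. Its levels were 1.48, 2.81 and 2.15 CP10K in WT beta cells with CON, FSK and Ex-4, and 2.66, 1.48 and 2.46 in mutant beta cells. The mutant FSK pool was the lowest mutant pool and the WT FSK pool the highest WT pool. The difference was -0.62 under FSK and 0.56 in CON, just short of the threshold there. Chgb, the granin chromogranin B, moved the other way: 3.79 CP10K in WT FSK and 6.09 in mutant FSK, a difference of 0.56 that lay just below the threshold.

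The promoters of Scg2 and Chgb both hold the full palindromic cAMP response element TGACGTCA, and so do those of Cmss1 and Peg3, an imprinted zinc finger gene. Each is shown in its 30-base setting with the element in capitals. These 4 were picked by hand from the genes named for beta cells. Whether other named genes that were not called hold the element is not listed here. The directions of these 4 are therefore no result about genes with the element. Promoter sequences are those of RefSeq, placed by exact match on GRCm39, and each distance is to the RefSeq start. That start can differ from the annotated gene position. The Scg2, Cmss1 and Chgb windows lie inside the annotated gene, and the Peg3 window lies before it.

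Scg2, chr1:79417793-79417822 (minus strand), 68 bases before the start: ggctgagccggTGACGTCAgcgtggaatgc
Cmss1, chr16:57427219-57427248 (minus strand), 7 bases before the start: cgtggcgtctgTGACGTCAtctccagtggc
Chgb, chr2:132623479-132623508 (plus strand), 72 bases before the start: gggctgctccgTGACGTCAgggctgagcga
Peg3, chr7:6733578-6733607 (minus strand), 178 bases before the start: actgactccgtTGACGTCAactccgtgcct

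Scg2 was lower under FSK in the mutant, Cmss1 was higher, and Chgb and Peg3 had positive differences (0.56 and 0.46) that were not called. Of the 2 higher beta genes with a promoter 1 held the element, and of the 7 lower genes 1 did, against 296 of 7896 kept genes (3.75%) and 549 of 27025 promoters in all (2.03%), read on either strand. In alpha cells 1 of 33 lower genes held it, namely Kctd8, and in delta cells 0 of 21. Peak1, the gene furthest apart, was not among those with the element in the 300-base window used.

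A further 6 lower genes of beta cells had CON differences in the same direction, near or past the threshold. Adgrl3, an adhesion receptor of the latrophilin family, stood at 5.27, 4.8 and 1.79 CP10K in WT with CON, FSK and Ex-4 and at 1.20, 2.49 and 1.27 in the mutant. Its difference of -0.73 under FSK compared with -1.51 in CON. Slc7a2, a cationic amino acid transporter, was at 5.46 CP10K in WT FSK and 3.26 in mutant FSK (difference -0.60, CON -0.83). Thsd4, a matrix protein gene, was at 7.17 and 4.43 CP10K (-0.59, CON -1.20). The solute carrier gene Slc35f1 was at 3.75 and 2.08 CP10K (-0.62, CON -1.17). Gm281, a predicted gene without a match in the annotation used here, was at 1.95 and 0.955 CP10K (-0.59, CON -0.71). The noncoding gene 4933432K03Rik was at 2.98 and 1.35 CP10K under FSK, a difference of -0.76 beside -0.58 in CON, where it fell just short of the threshold.

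**Figure D3:**
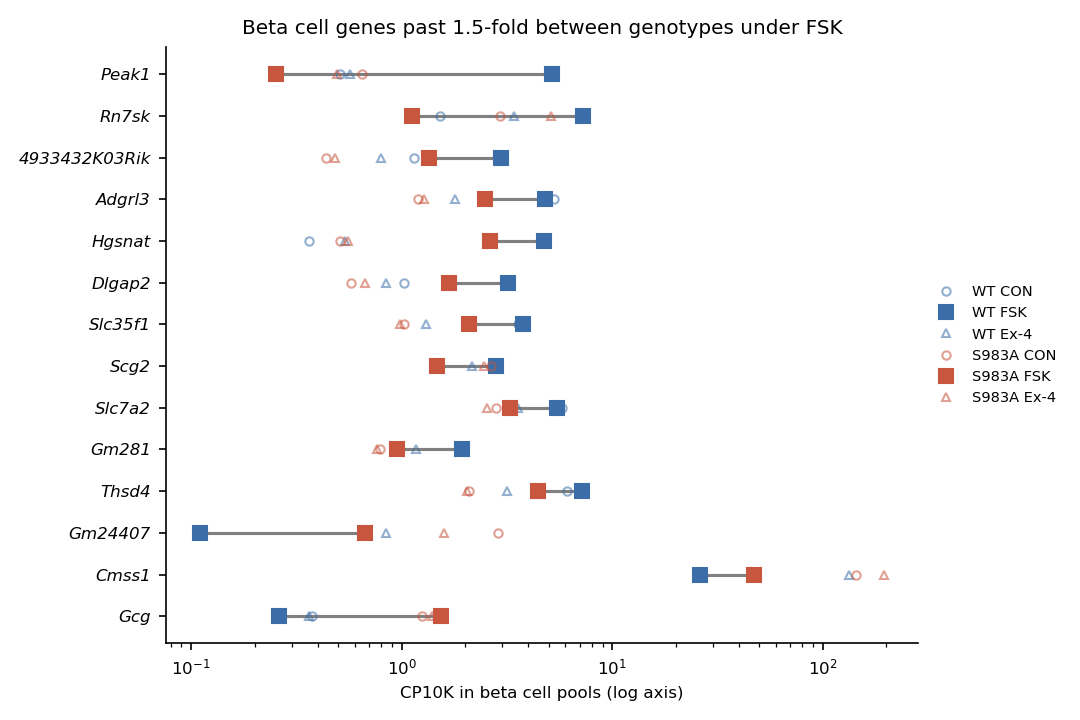
Levels (CP10K) on a log axis of the 14 genes called between genotypes under FSK in beta cells. Filled squares joined by a line are the FSK pools, open circles CON and open triangles Ex-4, in blue for WT and red for Med14 S983A. For 9 of the 11 lower genes the WT FSK pool is the highest of the 6, and for the 3 higher genes it is the lowest.

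These genes were chosen by the difference of the FSK pools, which partly fixes that one of these pools is extreme. The WT FSK pool was the highest of 6 for 9 of the 11 lower genes and the lowest for 3 of the 3 higher genes, whereas the mutant FSK pool was the lowest for 3 lower genes and the highest for 1 higher gene. In alpha cells WT FSK was the highest pool for 30 of 39 lower genes, and in delta cells for 15 of 25. It was the lowest for 6 of 7 higher genes in alpha and for 9 of 13 in delta cells. Over all kept genes WT FSK was the highest pool for 13% in beta, 14.4% in alpha and 15.7% in delta cells. It was the lowest for 43.8% in beta, 32.1% in alpha and 34% in delta cells. The mutant FSK pool was the highest for 13.8% and the lowest for 10.1% of all kept beta genes.

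Gcg, the glucagon gene that marks alpha cells, was the highest-ranking beta gene, at 0.262 CP10K in WT FSK and 1.53 in mutant FSK with 81 and 353 counts. It was above WT in mutant beta cells in CON (0.375 and 1.25 CP10K) and with Ex-4 (0.362 and 1.39) as well. Under FSK other nuclei that should lack Gcg showed the same or more. In endothelial cells it went from 0.643 CP10K in WT to 4.50 in the mutant (4 and 65 counts). In macrophages it went from 1.04 to 7.53 (5 and 11 counts). In muscle cells 0 counts in WT stood against 36 in the mutant, where the WT interval reaches 0.763 CP10K. Without FSK the directions were mixed. Gcg fell from 2.53 to 1.57 CP10K in endothelial cells in CON and from 3.54 to 2.69 in macrophages with Ex-4. It rose in endothelial cells with Ex-4 (0.360 to 3.49), in macrophages in CON (0.719 to 3.65) and in muscle cells in both. The beta cell levels lay at or below those of endothelial cells and macrophages, so no Gcg expression by beta cells is read from them. The alpha total was also the larger in the mutant (34.1% of the beta total against 8.71%), and its part in the Gcg value was not tested. The summed level of the 10 alpha markers in beta cells was 10.3 CP10K in WT FSK and 9.0 in mutant FSK, with 2 markers at 0 in WT FSK and 0 in mutant FSK. Most of this sum was Slc7a2 and Ttr (Ttr 3.30 and 2.67 CP10K), so it says little about the other markers. Apart from Gcg 1 of these markers, Slc7a2, was called, in the lower direction.

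Genes of beta cell identity were close between the genotypes under FSK. Of 23 kept members 0 were called in either direction and the median difference was -0.015, beside 0.030 for all kept genes. With 0.139% of all kept genes called under FSK, 0 calls in a list of this size is near the background. Untreated, 2 were higher and 7 lower, beside 1.48% and 3.86% of all kept genes. Iapp, the gene of islet amyloid polypeptide, stood at 11.6 CP10K in the WT pool and 4.51 in the mutant pool of CON (difference -1.20), but at 14.1 and 15.2 CP10K under FSK (0.10). The catalytic subunit gene G6pc2 was at 4.20 and 1.59 CP10K in CON (-1.0) and at 8.97 and 9.34 under FSK (0.05). Slc2a2, the glucose transporter GLUT2, kept more of its gap: 12 and 4.82 CP10K in CON (-1.16), and 7.90 and 5.21 under FSK (-0.52). The zinc transporter gene Slc30a8 was between these, at -1.24 in CON and -0.33 under FSK. The insulin genes did not separate under FSK, with Ins1 at 3.26 and 3.59 CP10K and Ins2 at 8.81 and 8.76 in WT and mutant.

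The cAMP pathway itself showed no called gene in beta cells under FSK. Its core (receptors, cyclases, PKA subunits and CREB with its coactivators) had 19 kept members and a median of 0.00090, with Gnas, the stimulatory G protein subunit, at 12.7 CP10K in WT FSK and 15.8 in mutant FSK (0.30). Negative modulators such as phosphodiesterases had 21 kept members with a median of -0.0013. Response genes of cAMP and CREB had 12 kept members with a median of 0.060, the highest being the nuclear receptor gene Nr4a2 at 0.747 and 1.29 CP10K (0.39). Nr4a2 was at 0.216 and 0.161 CP10K in the CON pools, so both genotypes were higher with FSK than without. With 0.139% of all kept genes called, 0 calls in lists of this size is near the background.

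A list of 11 genes that the study chose on these same nuclei as FSK-induced and Med14-dependent was lower as a group, which is no independent evidence of its direction. Of its 10 kept members in beta cells 1, Peak1, was called lower, and the median was -0.20 with all 10 below 0. In alpha cells the median was -0.081 and in delta cells 0.062, with Peak1 as the only call in each. Astn2, a member with a role in neuronal adhesion protein trafficking, was at 0.297 CP10K in WT FSK and 0.182 in mutant FSK in beta cells, a difference of -0.13.

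Mediator subunits were not called in any of the 3 cell types, with medians of 0.028 in beta, 0.10 in alpha and 0.065 in delta cells. With 0.139%, 0.485% and 0.411% of kept genes called there, 0 calls in a list of this size is near the background. Cdk8, the kinase of the Mediator kinase module, differed strongly in CON but little under FSK. It was at 19.1 and 86.9 CP10K in the WT and mutant CON pools of beta cells (2.13) and at 38.0 and 30.0 in the FSK pools (-0.33). The same turn was seen in alpha cells (2.26 in CON, -0.41 under FSK) and delta cells (2.06 and -0.05). In delta cells Med14 itself had 8 counts in WT FSK and 44 in mutant FSK, a difference of 0.52 at very low depth.

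Transcripts of mRNA splicing and export had 27 kept members and 0 calls in beta cells under FSK with a median of 0.051, against 13 higher and a median of 0.48 in CON. Over all kept beta genes 0.139% were called under FSK and 1.48% were higher in CON. The 0 calls under FSK in lists of this size, here and below, are thus near the background. In delta cells the splicing and export transcripts kept more of the difference, with a median of 0.23 beside 0.054 for all kept genes. There 1 was called higher, beside 0.14% of kept genes, and 22 of 27 were above the median of all kept genes. In the same delta pools H3 methyltransferases had a median of 0.16 with 13 of 18 above that of all kept genes, and 8 kept genes linked to ribosomal RNA or mitochondria had a median of 0.34 with 7 above it and Cmss1 called. The called splicing member was Srrm2, a splicing scaffold protein, at 5.47 CP10K in WT FSK and 9.0 in mutant FSK. Histone H3 methyltransferases had 4 higher genes and a median of 0.36 in CON but 0 calls and a median of 0.00038 under FSK in beta cells. Genes of ER protein folding, glycolysis, cholesterol synthesis, fatty acid metabolism and the circadian clock had 0 calls in beta cells, with medians from -0.0061 to 0.049. Granule exocytosis had 22 kept members, of which Scg2 alone was called.

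**Figure D4:**
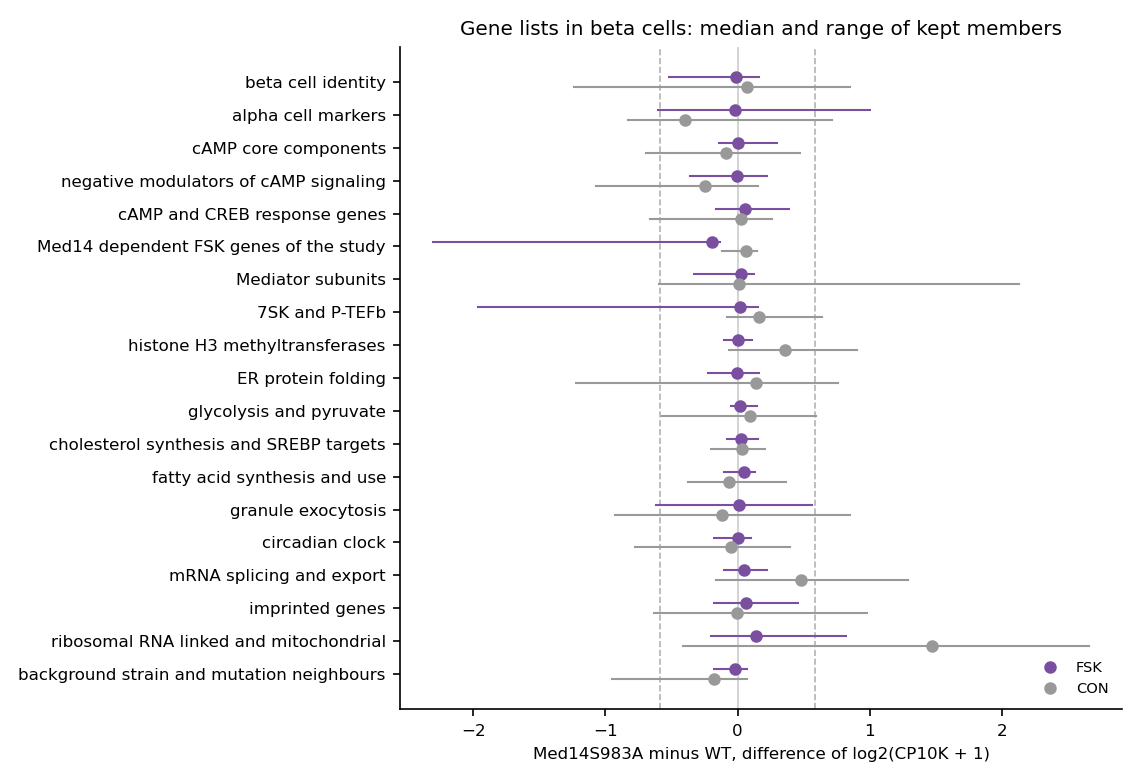
Mutant minus WT difference of log2(CP10K + 1) in beta cells under FSK and in CON, for the gene lists with at least 5 kept members. Points are medians and lines run from the lowest to the highest member, with the 1.5-fold threshold dashed. Most list medians under FSK lie close to that of all kept genes (0.030), including those of splicing (0.051) and H3 methyltransferases (0.00038), which were 0.48 and 0.36 in CON.

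In alpha cells 39 genes were lower, and after Peak1 and Rn7sk the differences of Cntnap2, Pappa2 and Car10 were furthest from 0. Cntnap2, a neurexin-family adhesion protein, was at 5.12 CP10K in WT FSK (138 counts) and 2.18 in mutant FSK (171 counts), a difference of -0.95. Pappa2, a protease of IGF-binding proteins, was at 27.8, 22.1 and 10.1 CP10K in WT with CON, FSK and Ex-4 and at 7.90, 11 and 8.58 in the mutant, so the Ex-4 pools were near each other and the FSK and CON pools apart. Car10, a carbonic anhydrase-related protein, was at 2.67 and 0.929 CP10K under FSK (-0.93) and at 1.29 and 0.938 in CON (-0.24). The netrin receptor gene Unc5c was at 7.46 and 3.77 CP10K (-0.83), and Kctd8, an auxiliary subunit of GABA-B receptors, at 3.93 and 1.79 (-0.82). The noncoding gene 9030622O22Rik went from 11.5 to 5.87 CP10K (-0.87).

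Most of these lower alpha genes were lower in CON too. Grb10, an imprinted adaptor of insulin receptor signaling, was at 10.7 CP10K in WT FSK and 6.06 in mutant FSK (-0.73, CON -1.50). Itpr1, the IP3-gated calcium channel, was at 22.4 and 13.1 CP10K (-0.74, CON -0.87), and Gpc6, a glypican, at 3.01 and 1.27 (-0.82, CON -2.01). Etv1, an ETS transcription factor gene, was at 19.9 and 12.8 CP10K (-0.60, CON -1.38). Ero1b, the ER oxidase of protein folding, differed mainly under FSK, at 4.75 and 2.62 CP10K (-0.67) against -0.36 in CON. Dgkg, a diacylglycerol kinase picked after its values were seen, was at 0.238, 1.78 and 0.310 CP10K in WT with CON, FSK and Ex-4 and at 0.321, 0.585 and 0.227 in the mutant, so that the WT FSK pool stood alone as it did for Peak1.

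The 7 higher alpha genes rested mostly on few counts in the WT FSK pool. Besides Cmss1 and Gm24407 they were Eif2s2, a subunit of the translation initiation factor eIF2 (5 and 68 counts), Pcyt2 of phosphatidylethanolamine synthesis (4 and 61), the sorting nexin gene Snx4 (4 and 58), Anks1b (28 and 163) and Erich3 (13 and 97). Eif2s2 was at 0.186 CP10K in WT FSK (interval 0.0603 to 0.433) and 0.865 in mutant FSK (0.672 to 1.10). Its CON levels were 0.429 and 0.864 CP10K, so the WT FSK pool was the low one. Anks1b, a postsynaptic density protein gene, was at 1.76 and 0.432 CP10K in WT and mutant CON (-0.95) but at 1.04 and 2.07 under FSK (0.59), opposite in direction. Gcg, the alpha hormone gene, was not called in alpha cells, with a difference of -0.30 under FSK and -1.26 in CON.

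In delta cells 25 genes were lower in the mutant, and after Peak1 and Rn7sk the difference of Nlgn1 was furthest from 0. Nlgn1, the synaptic adhesion protein neuroligin 1, was at 13.8, 12.2 and 5.26 CP10K in WT with CON, FSK and Ex-4 and at 3.67, 5.73 and 3.51 in the mutant. Syt1, the calcium sensor of vesicle fusion, was at 16.3 CP10K in WT FSK and 9.38 in mutant FSK (-0.74, CON -1.66), and Rims1, an active zone scaffold, at 2.5 and 0.95 (-0.84, CON -1.30). For these genes the mutant was lower with and without FSK. Dscam, a homophilic adhesion molecule of neurons, went from 39 to 23.0 CP10K (-0.74), Stxbp5l, the SNARE-binding tomosyn 2, from 28.3 to 16.9 (-0.71) and Adgrb3, an adhesion receptor, from 14.3 to 8.39 (-0.71). Dock1, a Rac activator, went from 8.86 to 5.04 CP10K (-0.71).

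Among the 13 higher delta genes were Maged1, an adaptor protein gene at 2.64 CP10K in WT FSK and 5.23 in mutant FSK (0.77), and Prpf4b, a splicing-linked kinase at 3.58 and 6.38 (0.69). Neat1, the noncoding RNA of paraspeckles, was at 5.94 and 9.79 CP10K (0.64). Dnm3, a dynamin, was at 3.56 and 6.11 CP10K (0.64), although its CON difference was -0.45. Atp7a, a copper transporter, was at 0.468 and 1.30 CP10K under FSK (20 and 82 counts, 0.65) but lower in the mutant in CON (-0.27). The delta marker Hhex, a homeobox transcription factor, was at 1.92 and 1.16 CP10K (-0.44) and was not called.

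Beyond the genes of all 3 cell types, Slc35f1 and Thsd4 were lower in both beta and alpha cells. Fgf12, an intracellular FGF homologue that binds sodium channels, Magi2, a membrane scaffold, Rbms3, an RNA-binding protein, and Unc5c were lower in both alpha and delta cells. In delta cells Unc5c was at 20.5 CP10K in WT FSK and 12.9 in mutant FSK. The gene-wise FSK difference of beta cells correlated with that of alpha cells at Pearson's r = 0.37 and with that of delta cells at 0.24, as a description across genes, which are not independent and whose pools of 1 condition share their wells.

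Compared with CON, whose pools are separate from the FSK pools, 8 of the 14 beta genes called under FSK were called in the same direction, or 57.1%. They comprised the 3 higher genes and 5 of the 11 lower genes, and make up 2.01% of the 149 higher and 1.28% of the 390 lower genes of CON. In alpha cells 4 of 7 higher and 25 of 39 lower genes were shared (63.0%), and in delta cells 7 of 13 and 19 of 25 (68.4%). Over all kept genes 5.34% in beta, 7.38% in alpha and 7.05% in delta cells were called in CON in either direction. Above the 75th percentile of level, where 97 of the 98 FSK calls lay, these shares were 12.8%, 17.4% and 16.3%. With Ex-4, which also acts through cAMP, 1 higher beta gene was shared, and no lower one could be, since 0 lower genes were called there. Most genes called in CON were not called under FSK. The genes called in CON were chosen by their CON difference, so a smaller difference in other pools is partly fixed by that choice. The 390 lower beta genes of CON had a median difference of -0.78 there and -0.095 under FSK. Of them 79.2% were below 0 under FSK, whereas 67.7% of all kept genes were above 0. That background includes low genes. Above the 75th percentile of level, where 537 of the 539 beta genes called in CON lay, the median under FSK was -0.0042. The 516 lower alpha genes went from -0.82 to -0.21 and the 443 lower delta genes from -0.78 to -0.23. The median under FSK over all kept genes was 0.054 in both cell types. Above the 75th percentile it was -0.0070 in alpha and 0.016 in delta cells. The 149 higher beta genes went from 0.76 to 0.077, beside 0.030 for all kept genes. Of them 73.8% were above 0 under FSK, beside 67.7% of all kept genes. Of the 184 higher alpha genes 67.4% were, beside 64.5%. These are near the shares of all kept genes, but shares among genes of like level were not computed. The higher delta genes of CON were above 0 under FSK in 92.4%, beside 66% of all kept genes. Across kept genes the FSK and CON differences correlated at r = 0.42 in beta, 0.40 in alpha and 0.49 in delta cells.

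**Figure D5:**
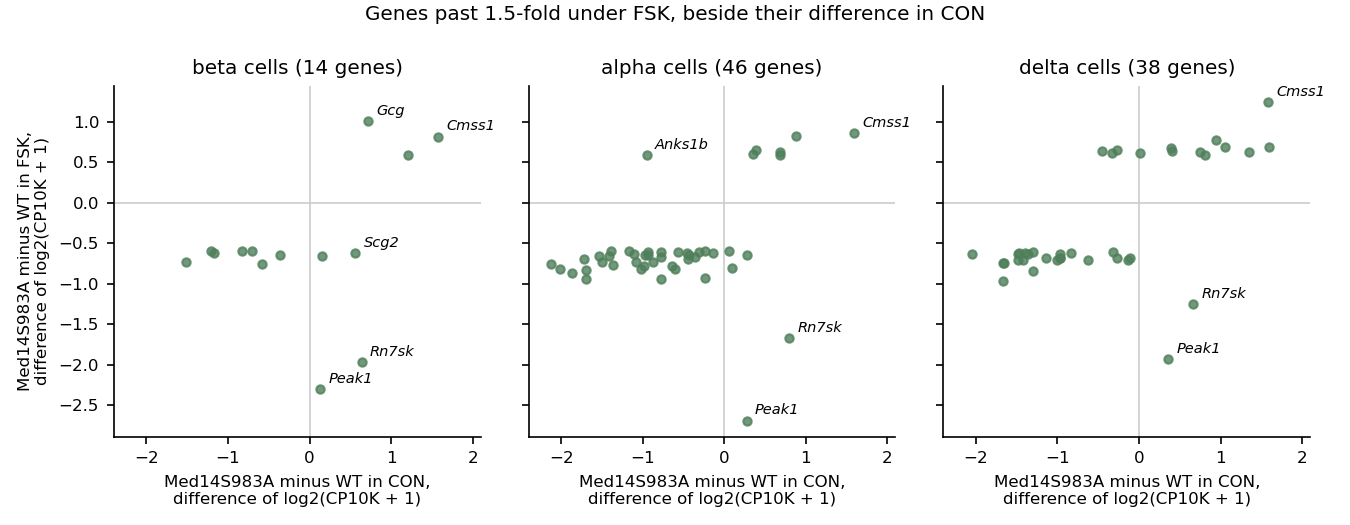
Mutant minus WT difference, log2(CP10K + 1), under FSK (vertical) against that in CON (horizontal), 1 point for each of the 14 beta, 46 alpha and 38 delta genes called under FSK. Most points lie on the same side of 0 on both axes, whereas Peak1 and Rn7sk lie far below 0 under FSK and above 0 in CON.

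The lower genes were long. The median gene length was 195 kb for the lower beta genes with an annotated length (10 of 11), 410 kb for the 39 lower alpha genes and 439 kb for the 25 lower delta genes, beside 35.8, 37.8 and 39.6 kb for all kept genes. Genes over 200 kb made up 50%, 71.8% and 84.0% of them, against 8.09%, 8.61% and 8.87% of kept genes. The median difference of all genes over 200 kb was -0.040 in beta, -0.098 in alpha and -0.10 in delta cells, and that of genes under 10 kb was 0.052, 0.12 and 0.094. In CON the long genes stood further down, at -0.37, -0.39 and -0.40. With a smooth trend on length removed, 6 lower genes were left in beta, 18 in alpha and 6 in delta cells. The share of higher genes among the calls then rose from 34.2% to 76.0% in delta cells and from 15.2% to 33.3% in alpha cells. Why length moved with the genotype difference was not tested.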

How the data were processed

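Pools of islet nuclei from 6 conditions (WT or Med14 S983A with CON, FSK or Ex-4) were analysed, 1 per cell type. The authors aligned barcoded reads to mm39 with split-pipe, filtered and annotated nuclei, kept at most 2500 per sample and deposited natural log values, ln(1 + CP10K), for 17362 genes. Whether pooled counts were raw or corrected, and the annotation release, are not given in the sources used here. Whole counts were recovered (largest distance from a whole number 6.39e-05). Column totals ran from 1522 to 3094377. A 0 was treated with a floor of 3 counts.

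The filter used the mean of ln(1 + CP10K) over the 6 conditions of each cell type. It kept genes from the 40th percentile upward, taken among genes with a mean above 0. With 1 pool per condition no test was run, and genes past 1.5-fold were counted. The counting was tested on simulated data. Lengths and positions came from GRCm39, for 16531 genes that matched the annotation. Promoters were 300-base RefSeq windows. Python 3.11.15, pandas 2.3.3, statsmodels 0.14.6 (lowess span 0.3), BLAST+ 2.17.0 and samtools 1.23.1 were used. Alternatives were another filter, threshold, pseudocount, centring, rescaling and a length trend. A linear ratio and a count minimum were added after seeing the data.

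Members and lists were chosen with earlier results of these data known. Named were Med14, genes called in beta cells, the 10 largest and smallest differences there and 8 each in alpha and delta cells, genes called in several cell types or also in CON, and list members.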

Additional observations from a re-analysis of the deposited data

Results flagged for a closer look

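Rn7sk changed sign between treatments in each endocrine cell type. The mutant minus WT difference was -1.97 under FSK and 0.64 in CON in beta cells, -1.67 and 0.79 in alpha cells, and -1.25 and 0.67 in delta cells. Anks1b did so in alpha cells, at 0.59 under FSK and -0.95 in CON. With 1 pool per group these differences between treatments were not tested.

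Peak1, Rn7sk and Cmss1 also passed 1.5-fold under FSK in some cell types outside the comparison. Rn7sk was at -1.54 in endothelial cells, -1.46 in macrophages, -1.33 in muscle cells and -1.81 in PP cells. Its CON differences there were 0.79, 1.21, 0.69 and 0.35, so the change of sign was not limited to the endocrine pools of the comparison. Peak1 was at -1.09 in endothelial cells, -0.79 in muscle cells and -1.38 in PP cells. Its CON differences were -1.06 in endothelial and -1.17 in muscle cells, so there it was lower without FSK too, unlike in the endocrine pools of the comparison, and 0.48 in PP cells. In macrophages it was at -0.19 under FSK (57 and 15 counts) and in ductal cells at 0.93 (4 and 6 counts). In neurons Peak1 ran the other way, at 2.08, on 2 counts in WT and 49 in the mutant. Cmss1 was at 0.61 in endothelial cells, 0.78 in macrophages, 1.41 in muscle cells and 1.15 in PP cells. No test of these was possible with 1 pool each.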

How the results depend on the processing

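Calls under FSK are given as higher and lower genes in the mutant. A 2-fold threshold left 1 and 2 in beta, 0 and 2 in alpha, and 1 and 2 in delta cells. With a pseudocount of 0.01 times the median level they were 2191 and 158 in beta, 3151 and 658 in alpha, and 2898 and 513 in delta cells, and with 1 times the median 13 and 21, 431 and 121, and 290 and 87. Linear ratios with counting intervals apart gave 551 and 73, 92 and 121, and 195 and 113. Centring moved alpha cells to 3 and 65 and delta cells to 7 and 42. Removing a trend on gene length left 6 lower genes in beta, 18 in alpha and 6 in delta cells. No list median passed 1.5-fold except 4 with the 0.01 pseudocount. Calls shared with CON numbered 63, and 1 at 2-fold, 4532 and 289 with the pseudocounts, 26 after length removal and 511 on linear ratios. The reported calls all stayed under both pseudocounts, which was fixed in advance because each is smaller than the +1 of the reported scale. Their direction could change only with centring, rescaling or length removal, and none did. Other settings (a filter at the 75th percentile or none, rescaling and a count minimum) left every count within 1.5 times the reported one. The causes of these shifts were not tested.

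No paired analysis was possible because each genotype and treatment had 1 pool per cell type, and leaving out a replicate was not possible either. Depth limits the low genes, above all in the WT FSK alpha pool of 269394 counts.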

Other observations

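A pair of beta cell genes short of the threshold differed in which FSK pools were high. Ttyh1, higher in both FSK pools than in the others and a membrane protein gene of the tweety family, was at 0.0996 CP10K in the WT pool and 0.187 in the mutant pool of CON, and at 1.08 and 1.89 under FSK (difference 0.47). Ints2, a subunit of the Integrator complex that processes small nuclear RNAs, was at 0.452 CP10K in WT FSK and 1.02 in mutant FSK (0.48), with the other 4 pools between 0.461 and 0.570, so that the mutant FSK pool was the high one.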
